A study of Mus musculus with 8 samples.

Results

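The genes described here were 10 immediate early genes, namely *Fos*, *Fosb*, *Fosl1* and *Fosl2* of the FOS family, *Jun*, *Junb* and *Jund* of the JUN family, *Egr1* and *Egr2* of the EGR family, and *Ier2*. They were chosen by gene symbol, and each of the 10 symbols matched exactly 1 of the 24849 entries that every sample lists. The libraries came from mouse embryonic stem cells (mESCs), wild type or *Pcgf5*-/-, of the MPI-II line, strain 129S2/SvPas, before and after 6 days of neural differentiation. PCGF5 is a subunit of a Polycomb repressive complex that places ubiquitin on histone H2A, and the study asked what its loss does to the exit of mESCs towards a neural fate. The 4 groups were wild type at day 0, wild type at day 6, *Pcgf5*-/- at day 0 and *Pcgf5*-/- at day 6, each with 2 samples that the series design calls biological replicates. At day 0, cells of both genotypes grew on feeder cells in medium with fetal bovine serum, LIF, the GSK3 inhibitor CHIR99021 and the MEK inhibitor PD0325901. For day 6 the cells were moved to N2B27, a serum-free medium that lets mESCs turn into neural progenitors. Loss of serum, of LIF, of the inhibitors and of feeder cells, and the differentiation itself, therefore coincide in every comparison of the days and cannot be told apart. The mutant cells were made with TALENs and grown from picked colonies, and the number of clones behind the sequenced RNA is not given in the sources used here.

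Immediate early genes are transcribed within minutes of a signal such as serum, growth factors, depolarization or stress, without new protein synthesis. FOS and JUN proteins pair through leucine zippers to form AP-1, in which JUN proteins can pair among themselves while FOS proteins need a JUN partner. Serum and growth factors reach *Fos*, *Egr1* and *Ier2* largely through the RAS, RAF, MEK and ERK kinases, which switch on ternary complex factors bound beside SRF. In the cells of day 0 this route carries opposed inputs, serum and a MEK inhibitor.

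Promoter sequence is shown for the members whose window holds a site of the factors that classically drive immediate early genes. RefSeq promoters of 300 bases, from 250 bases before to 50 bases after the start, were present for 7 of the 10 genes (GRCm38.p6, a later build than that of the expression values). None was present for *Fosl1*, *Egr1* and *Ier2*, and sites outside the window were not searched for any gene. The core of the cAMP response element, TGACG, was searched on both strands and was found in *Fos*, *Fosb*, *Junb* and *Egr2*, and in 20.8% of all 32851 promoters. In the windows below, written 5′ to 3′ along the gene's strand, capitals mark that core, which lies 66 and 129 bases before the start of *Fos*, 60 bases before that of *Fosb* and 106 bases before that of *Junb*. The coordinates are chr12:85473812-85473841 and chr12:85473749-85473778 on the plus strand for *Fos*, chr7:19310088-19310117 on the minus strand for *Fosb* and chr8:84978837-84978866 on the minus strand for *Junb*.
Fos, nearer core: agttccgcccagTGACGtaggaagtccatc
Fos, farther core: ggggcgtagagtTGACGacagagcgcccgc
Fosb: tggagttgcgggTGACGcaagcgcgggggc
Junb: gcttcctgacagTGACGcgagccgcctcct

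A variant AP-1 site known from *Jun*, TGACATCA, was found in *Jun* and in 3.62% of all promoters. *Jun* was the AP-1 member that rose in wild type, and the window at chr4:95052249-95052278 on the minus strand, with the site in capitals 45 bases before the start, is shown for that reason.
Jun: aagcctcggggTGACATCAtgggctatttt

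The CArG box, the SRF site, was found in *Egr2* and in 1.63% of all promoters, while *Fosl1*, *Egr1* and *Ier2* had no window to search. Sites more than 250 bases before the start were not searched in any gene, *Fos* included. An EGR site, GCGNGGGCG, was found in *Fosb* and *Fosl2* and in 5.55% of all promoters. The windows at chr10:67537787-67537816 and chr5:32136383-32136412, both on the plus strand, show an example of each in capitals.
Egr2: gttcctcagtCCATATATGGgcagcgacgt
Fosl2: ccggctgcgcGCGGGGGCGgaagggcgcgc

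The AP-1 site TGANTCA, the full cAMP response element TGACGTCA and the STAT site TTCNNNGAA were found in none of the 7 members' windows and in 7.81%, 1.79% and 8.30% of all promoters. TGACGTCA holds the shorter TGACG by its own letters, and a match is a description of letters only.

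The values are FPKM, fragments scaled to exon length and to the mapped total of the library, which allow levels to be compared between genes. Between 16919 and 17673 genes lay above 0 in a sample, and the correlation of log2(FPKM + 1) between the 2 samples of a group was 0.972 to 0.974. No fragment counts come with the values, and the steps of the low values placed the relative depth of the libraries within 1.30-fold of each other. *Pcgf5* itself was at 5.18 and 3.63 FPKM in wild type at day 0 and at 1.28 and 1.84 FPKM in *Pcgf5*-/- at day 0 (limma adjusted p = 0.105). At day 6 it was at 9.16 and 5.06 FPKM in wild type against 0.669 and 0.457 FPKM in *Pcgf5*-/- (limma adjusted p = 0.00421). The summed FPKM of 10 naive pluripotency markers was 2238 to 2451 in the 4 samples of day 0, and fell to 396 and 174 in wild type and 1081 and 1030 in *Pcgf5*-/- at day 6, with none of the 10 at 0 in any sample. The summed FPKM of 10 neuron markers was 530 and 373 in wild type and 195 and 176 in *Pcgf5*-/- at day 6, against 162 to 216 in the samples of day 0, in each of which 1 or 2 of the 10 were at 0. Over the 6 days 8 of the 10 rose and 1 fell in wild type and 7 rose and 1 fell in *Pcgf5*-/-. Of all genes tested, 34.2% rose and 16.2% fell in wild type, and 21.9% rose and 10.4% fell in *Pcgf5*-/-. *Dcx*, *Snap25*, *Rbfox3* and *Elavl4* had a group mean over 1 FPKM, the minimum for testing, only at day 6. Their rises are therefore in part set by that minimum. In *Pcgf5*-/- the abundant *Stmn2*, named after its values were seen, went from 90.0 and 92.1 FPKM to 36.2 and 32.3 FPKM, so that the sum and the count of neuron markers differ. Of 10 neural progenitor markers, 9 rose and 0 fell in wild type, and 8 rose and 1 fell in *Pcgf5*-/-. Their summed FPKM went from 294 and 237 to 745 and 793 in wild type. In *Pcgf5*-/- it was 229 and 318 at day 0 and 328 and 315 at day 6, so that the sum and the count differ here too. At day 6, 9 of the 10 progenitor markers were called lower in *Pcgf5*-/- than in wild type, where 7.05% of all genes were. In bulk RNA, fewer cells of a type and less RNA per cell cannot be told apart.

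Changes below are log2 fold changes of FPKM + 1 with the standard error (SE) from limma, adjusted over 13214 genes, and a gene is said to have risen or fallen where the adjusted p was under 0.05. On this scale the change of genes near 1 FPKM is smaller than the ratio of their FPKM. Between day 0 and day 6, 5 of the 8 members tested changed in wild type (62.5%), *Jun* and *Egr1* upwards and *Fos*, *Junb* and *Ier2* downwards, where 50.5% of all genes changed, 34.2% upwards and 16.2% downwards. In *Pcgf5*-/-, 5 of 8 changed as well, *Egr1* upwards and *Fos*, *Fosb*, *Fosl2* and *Junb* downwards, where 32.3% of all genes changed, 21.9% upwards and 10.4% downwards. The median change of the 8 members was -0.40 in wild type and -0.77 in *Pcgf5*-/-, against 0.22 and 0.13 over all genes. Quantile normalization moved the median of all genes in wild type from 0.22 to 0.00 and in *Pcgf5*-/- from 0.13 to 0.02, and the share of rises among all calls from 67.8% to 51.3% and from 67.9% to 53.1%, while each of these 10 member calls kept its direction. By sample values, 6 of all 10 genes did not overlap between the days in wild type and 8 in *Pcgf5*-/-, where this held for 77.6% and 68.4% of all genes tested.

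**Figure D1:**
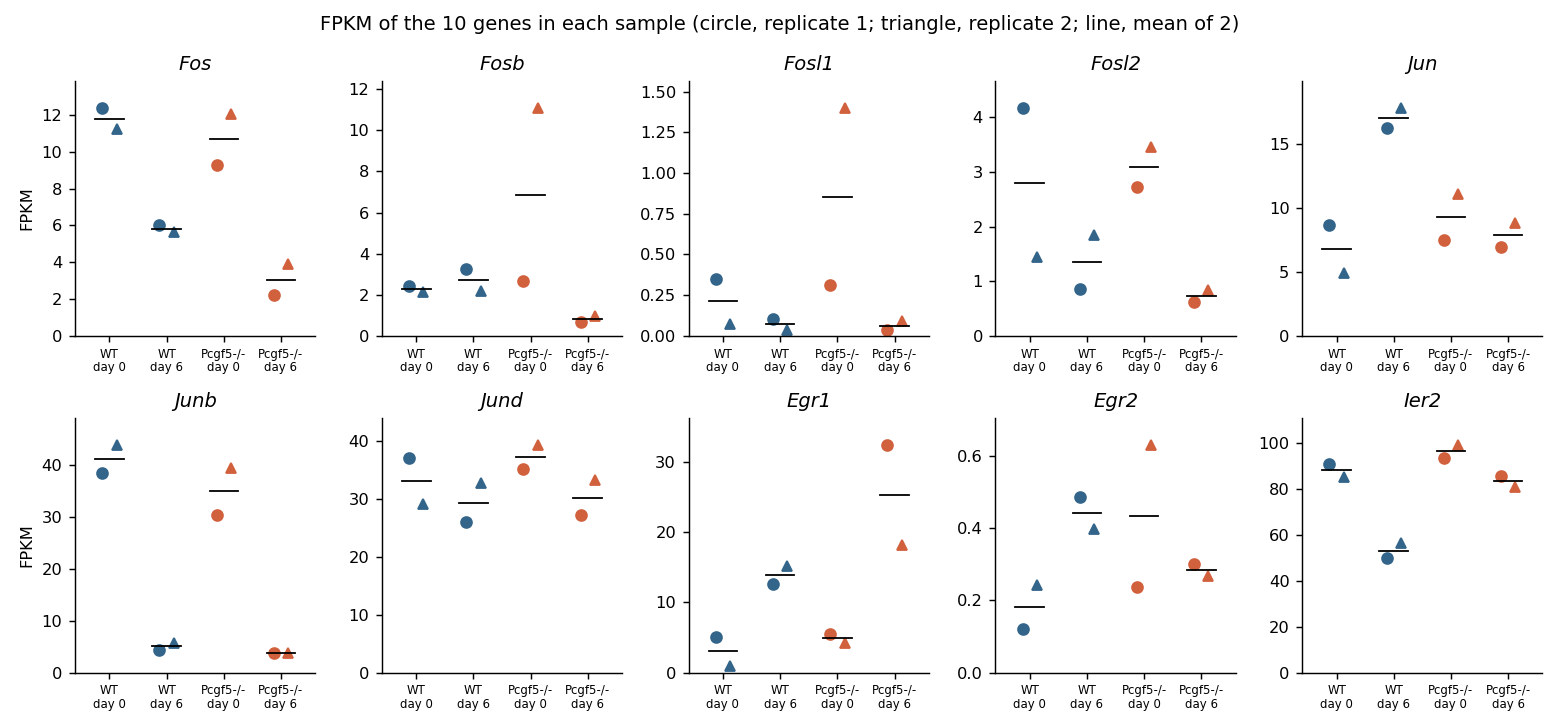
FPKM of each of the 10 genes (vertical axis, linear, its own scale in each panel) in the 8 samples, with wild type (WT) in blue, Pcgf5-/- in orange, a circle for replicate 1, a triangle for replicate 2 and a line at the mean of 2. Junb lies between 30.4 and 43.8 FPKM in all samples of day 0 and between 3.82 and 5.74 FPKM in all samples of day 6, and Egr1 is the gene that lies higher at day 6 in both genotypes.

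*Fos* encodes the AP-1 subunit whose transcript is the classic readout of serum stimulation (mm9 chr12:86814851-86818219). It was at 12.4 and 11.2 FPKM in wild type at day 0 and at 6.02 and 5.62 FPKM in wild type at day 6. *Pcgf5*-/- cells had 9.28 and 12.1 FPKM at day 0 and 2.21 and 3.90 FPKM at day 6. The days did not overlap in either genotype, the genotypes overlapped at day 0, and at day 6 the pair of *Pcgf5*-/- values was under the wild type pair. *Fos* fell by 0.91 on the log2 scale in wild type (SE 0.23, limma adjusted p = 0.0121), a call that was lost without the first wild type sample of day 0 (adjusted p = 0.0619) or without replicate 2 of wild type at day 6 (adjusted p = 0.0666). It fell by 1.55 in *Pcgf5*-/- (SE 0.23, limma adjusted p = 0.00236), and this call held whichever sample was left out. The genotypes at day 6 differed by -0.78 (SE 0.23), which missed the threshold (limma adjusted p = 0.0541) and passed it without replicate 2 of *Pcgf5*-/- at day 6 (-1.09, adjusted p = 0.0416).

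*Fosb* encodes a close relative of FOS best known from neurons, where it builds up after repeated activity (mm9 chr7:19888045-19895394). It was at 2.44 and 2.14 FPKM in wild type at day 0 and at 3.24 and 2.18 FPKM at day 6. In *Pcgf5*-/- it was at 2.65 and 11.1 FPKM at day 0 and at 0.681 and 0.958 FPKM at day 6. The wild type days overlapped, the *Pcgf5*-/- days did not, and replicate 2 of *Pcgf5*-/- at day 0 stood 4.18-fold above replicate 1. *Fosb* fell by 1.87 in *Pcgf5*-/- (SE 0.47, limma adjusted p = 0.0189), by 1.01 without the high replicate 2 of day 0 (adjusted p = 0.0332), and the call was lost without replicate 1 or replicate 2 of *Pcgf5*-/- at day 6 (adjusted p = 0.0904 and 0.0717) or without an FPKM minimum (adjusted p = 0.0611). In wild type the change was 0.16 (SE 0.47, adjusted p = 0.794), with a 95% interval of -0.92 to 1.25. The genotypes at day 6 differed by -1.02 (SE 0.47, limma adjusted p = 0.177), with an adjusted p of 0.0257 without replicate 1 and 0.0254 without replicate 2 of *Pcgf5*-/- at day 0 and of 0.0415 when the groups of day 6 were fitted alone.

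*Fosl2* encodes FRA2, a FOS relative that accumulates later after a stimulus (mm9 chr5:32438845-32460212). It was at 4.17 and 1.44 FPKM in wild type at day 0 and at 0.851 and 1.84 FPKM at day 6, and these groups overlapped. In *Pcgf5*-/- it was at 2.73 and 3.46 FPKM at day 0 and at 0.626 and 0.832 FPKM at day 6, with no overlap. *Fosl2* fell by 1.24 in *Pcgf5*-/- (SE 0.36, limma adjusted p = 0.0308), but leaving out any of the 4 *Pcgf5*-/- samples ended the call, with adjusted p of 0.0825 and 0.121 for replicates 1 and 2 of day 0 and 0.125 and 0.0944 for those of day 6, as did the lack of an FPKM minimum (adjusted p = 0.0792). The wild type change of -0.63 (SE 0.36, adjusted p = 0.172) passed without replicate 2 of wild type at day 0 (-1.17, adjusted p = 0.0231) and with quantile normalization (-1.07, adjusted p = 0.0378).

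*Fosl1* encodes FRA1, which is prominent in fibroblasts and in cells with active RAS (mm9 chr19:5447698-5455938, a locus that overlaps *Ccdc85b*, so that reads of the overlap are uncertain). It was at 0.350 and 0.0741 FPKM in wild type at day 0, 0.102 and 0.0381 FPKM in wild type at day 6, 0.314 and 1.40 FPKM in *Pcgf5*-/- at day 0, and 0.0365 and 0.0885 FPKM in *Pcgf5*-/- at day 6. Only replicate 2 of *Pcgf5*-/- at day 0 exceeded 1 FPKM, and the gene stayed under the minimum of a mean of 1 FPKM in at least 1 group and was not tested. Without a minimum its change over 6 days in *Pcgf5*-/- was -0.74 (SE 0.27, limma adjusted p = 0.113).

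Feeder cells are fibroblasts, and markers of fibroblasts varied between the samples. The summed FPKM of 17 fibroblast markers was 446 and 336 in wild type at day 0, 90.3 and 236 in wild type at day 6, 291 and 969 in *Pcgf5*-/- at day 0, and 75.5 and 76.0 in *Pcgf5*-/- at day 6. Of these markers 16 were tested, of which 10 fell and 1 rose in wild type and 11 fell in *Pcgf5*-/-, and the 1 at 0 in a sample was *Fap*, at 0 in both *Pcgf5*-/- samples of day 6. The sample with the highest sum, replicate 2 of *Pcgf5*-/- at day 0, also held the highest *Fosb* and *Fosl1* of all 8 samples, but its *Fos* of 12.1 FPKM lay below the 12.4 FPKM of the first wild type sample of day 0. At day 0, *Fos*, *Fosb*, *Fosl1* and *Fosl2* were each higher in the sample with the higher sum of their genotype. In wild type at day 6, *Fos*, *Fosb* and *Fosl1* were lower in the sample with the higher marker sum, and *Fosl2* was higher (1.84 against 0.851 FPKM). The part of feeder transcripts in these results was not tested. Without that sample, 23.3% of all genes in place of 32.3% were called between the days in *Pcgf5*-/-, and 3 of 8 members, *Fos* (-1.38, limma adjusted p = 0.0164), *Fosb* and *Junb* (-2.70, adjusted p = 0.000962).

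**Figure D2:**
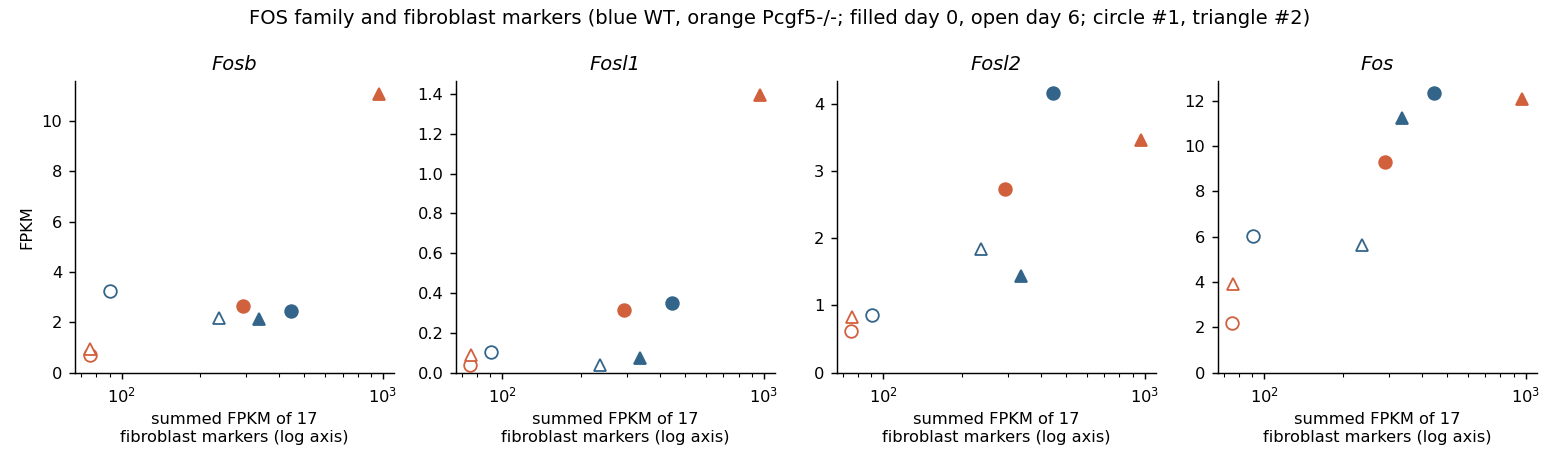
FPKM of the 4 FOS family genes (vertical axes, linear) against the summed FPKM of 17 fibroblast markers (horizontal axis, log scale) in the 8 samples, with wild type in blue, Pcgf5-/- in orange, filled symbols for day 0, open symbols for day 6, circles for replicate 1 and triangles for replicate 2. The Pcgf5-/- sample of day 0 at a sum of 969 stands apart for Fosb (11.1 FPKM) and Fosl1 (1.40 FPKM), but not for Fos or Fosl2.

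*Junb* encodes a JUN protein with weak transactivation that restrains JUN and the cell cycle in many settings, and it is a target of LIF signalling through STAT3 in mESCs (mm9 chr8:87500808-87502647). It was at 38.5 and 43.8 FPKM in wild type at day 0 and at 4.40 and 5.74 FPKM at day 6. The *Pcgf5*-/- samples were at 30.4 and 39.5 FPKM at day 0 and at 3.82 and 3.86 FPKM at day 6. Every sample of day 6 was thus far below every sample of day 0, and at day 6 both *Pcgf5*-/- samples lay just under both wild type samples. *Junb* fell by 2.80 in wild type (SE 0.18, limma adjusted p = 1.97e-05) and by 2.88 in *Pcgf5*-/- (SE 0.18, limma adjusted p = 8.97e-05), to 0.143-fold and 0.136-fold of the FPKM + 1 of day 0. Both calls held in all 16 alternative settings, with changes of -3.06 to -2.64 and of -3.17 to -2.70. The genotypes differed by -0.32 at day 6 (SE 0.18, adjusted p = 0.270), with a 95% interval of -0.74 to 0.10.

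*Jun* encodes the c-JUN protein, the strongest transactivator of the family, whose own gene is a target of AP-1 (mm9 chr4:94715727-94718913). It was at 8.69 and 4.88 FPKM in wild type at day 0 and at 16.3 and 17.8 FPKM at day 6. Values in *Pcgf5*-/- were 7.46 and 11.1 FPKM at day 0 and 6.95 and 8.78 FPKM at day 6. Both wild type samples of day 6 stood above all other samples, while the *Pcgf5*-/- days overlapped. *Jun* rose by 1.25 in wild type (SE 0.27, limma adjusted p = 0.00570), in all 16 alternative settings, and its change in *Pcgf5*-/- was -0.20 (SE 0.27, adjusted p = 0.614) with a 95% interval of -0.82 to 0.43. At day 6 it was lower in *Pcgf5*-/- by -1.03 (SE 0.27, limma adjusted p = 0.0376). Leaving out any of the 4 samples of day 6 ended this call, with adjusted p of 0.179 and 0.0842 for replicates 1 and 2 of *Pcgf5*-/- and 0.108 and 0.172 for those of wild type, and so did the lack of an FPKM minimum (adjusted p = 0.0846). The test of the difference itself, of the change over 6 days in *Pcgf5*-/- minus that in wild type, gave -1.45 (SE 0.38), with an unadjusted p of 0.00524 and a limma adjusted p of 0.0778, and 0.0555 to 0.226 over the 15 alternatives.

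*Jund* encodes the JUN protein that is expressed broadly and responds least to serum (mm9 chr8:73221638-73224515). It was at 37.1 and 29.1 FPKM in wild type at day 0, 26.0 and 32.7 FPKM in wild type at day 6, 35.2 and 39.3 FPKM in *Pcgf5*-/- at day 0, and 27.2 and 33.2 FPKM in *Pcgf5*-/- at day 6. The 4 groups lay close together, and only the days of *Pcgf5*-/- did not overlap. Its change was -0.17 in wild type (95% interval -0.58 to 0.24) and -0.30 in *Pcgf5*-/- (95% interval -0.71 to 0.11), and neither passed the threshold (limma adjusted p = 0.458 and 0.236).

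The JUN family as a whole was therefore made up differently on the 2 days. The summed FPKM of *Jun*, *Junb* and *Jund* was 73.0 to 89.9 in the samples of day 0 and at most 56.2 in those of day 6. *Junb* made up 41.6% to 56.3% of the sum at day 0 and 8.42% to 10.2% at day 6. *Jun* made up 6.27% to 12.3% at day 0 and, at day 6, 34.8% and 31.6% in wild type and 18.3% and 19.2% in *Pcgf5*-/-, so that the shares of the genotypes did not overlap at day 6. *Jund*, whose own level did not pass the test, made up 55.7% and 58.2% of the sum in wild type and 71.7% and 72.4% in *Pcgf5*-/- at day 6. The FOS family sum was lower than the JUN family sum in every sample. It went from 19.3 and 14.9 FPKM to 10.2 and 9.69 FPKM in wild type and from 15.0 and 28.0 FPKM to 3.55 and 5.78 FPKM in *Pcgf5*-/-, and *Fos* held the largest share of it, 43.1% to 75.5%, in all 8 samples. These sums and shares are descriptions of the samples and carry no test.

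**Figure D3:**
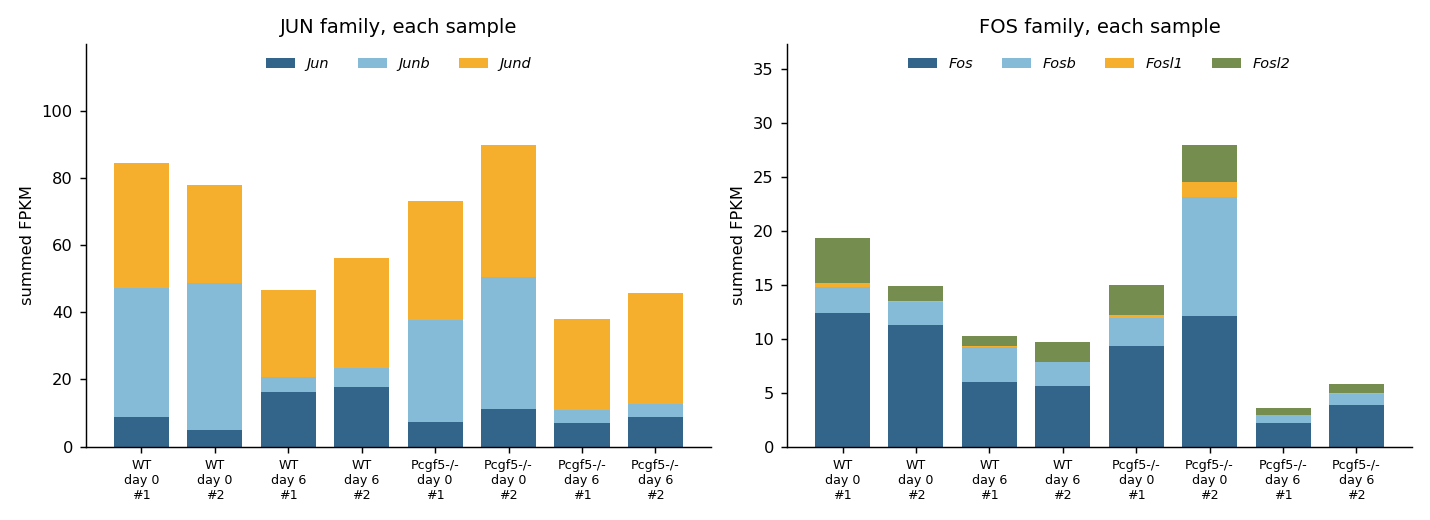
Stacked bars of the summed FPKM (vertical axis, from 0) of the JUN family (left) and the FOS family (right) in each of the 8 samples, 1 colour per gene. The Junb segment shrinks from 30.4 to 43.8 FPKM at day 0 to 3.82 to 5.74 FPKM at day 6, the Jund segment stays between 26.0 and 39.3 FPKM, and the Jun segment is largest in the wild type samples of day 6 (16.3 and 17.8 FPKM).

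*Egr1* encodes a zinc finger factor that ERK signalling induces through SRF and the ternary complex factors (mm9 chr18:35020861-35024610). It was at 5.04 and 0.996 FPKM in wild type at day 0 and at 12.6 and 15.2 FPKM at day 6. The mutant samples were at 5.52 and 4.20 FPKM at day 0 and at 32.4 and 18.2 FPKM at day 6. All samples of day 6 were above all samples of day 0, and at day 6 both *Pcgf5*-/- samples were above both wild type samples, with a spread of 1.78-fold between the *Pcgf5*-/- replicates of day 6 and of 5.06-fold between the wild type replicates of day 0. *Egr1* rose by 2.09 in wild type (SE 0.48, limma adjusted p = 0.00697), in all 16 alternative settings with changes of 1.30 to 2.89. It rose by 2.12 in *Pcgf5*-/- (SE 0.48, limma adjusted p = 0.0120), a call lost without replicate 2 of *Pcgf5*-/- at day 0 (adjusted p = 0.0594) or replicate 1 of day 6 (adjusted p = 0.0788). The genotypes at day 6 differed by 0.77 (SE 0.48, adjusted p = 0.301), with a 95% interval of -0.32 to 1.86.

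*Egr1* and *Fos*, often used as interchangeable markers of a serum response, thus went opposite ways over the 6 days in both genotypes. The ratio of their FPKM, *Egr1* to *Fos*, was 0.0886 to 0.595 in the samples of day 0 and 2.09 to 14.7 in those of day 6. Their Pearson correlation over the 8 samples was -0.90, as a description of samples that share 4 groups. That of *Fos* with *Junb* was 0.91 and that of *Fosb* with *Fosl1* was 0.88.

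*Egr2* encodes a relative of EGR1 known from the hindbrain and from myelinating Schwann cells (mm9 chr10:67000617-67004936). It was at 0.120 and 0.243 FPKM in wild type at day 0, 0.485 and 0.397 FPKM in wild type at day 6, 0.236 and 0.629 FPKM in *Pcgf5*-/- at day 0, and 0.300 and 0.267 FPKM in *Pcgf5*-/- at day 6. No sample reached 1 FPKM, so the gene was not tested. Without a minimum, its change in wild type was 0.29 (SE 0.13, limma adjusted p = 0.151) although the days did not overlap.

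*Ier2* encodes a small nuclear protein induced by serum and had the highest mean of the 10 genes in each group (mm9 chr8:87185230-87186751). It was at 90.9 and 85.2 FPKM in wild type at day 0 and at 49.9 and 56.5 FPKM at day 6. The mutant, *Pcgf5*-/-, was at 93.6 and 99.1 FPKM at day 0 and at 85.8 and 81.0 FPKM at day 6. The wild type samples of day 6 stood alone at the low end, and replicates lay within 1.13-fold of each other. *Ier2* fell by 0.72 in wild type (SE 0.12, limma adjusted p = 0.00133), in all 16 alternative settings, and its change in *Pcgf5*-/- was -0.21 (SE 0.12, adjusted p = 0.209) with a 95% interval of -0.47 to 0.06. At day 6 *Ier2* was higher in *Pcgf5*-/- by 0.64 (SE 0.12, limma adjusted p = 0.0115), a call lost without replicate 1 of *Pcgf5*-/- (adjusted p = 0.0675) or of wild type (adjusted p = 0.0579) at day 6. The difference of the 2 changes was 0.51 (SE 0.16), with an unadjusted p of 0.0134 and a limma adjusted p of 0.116. The listed FPKM of *Ier2* exceeded the upper bound of the interval that the authors' program gives beside it in all 8 samples, and none of the other 72 values of the members lay outside theirs.

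**Figure D4:**
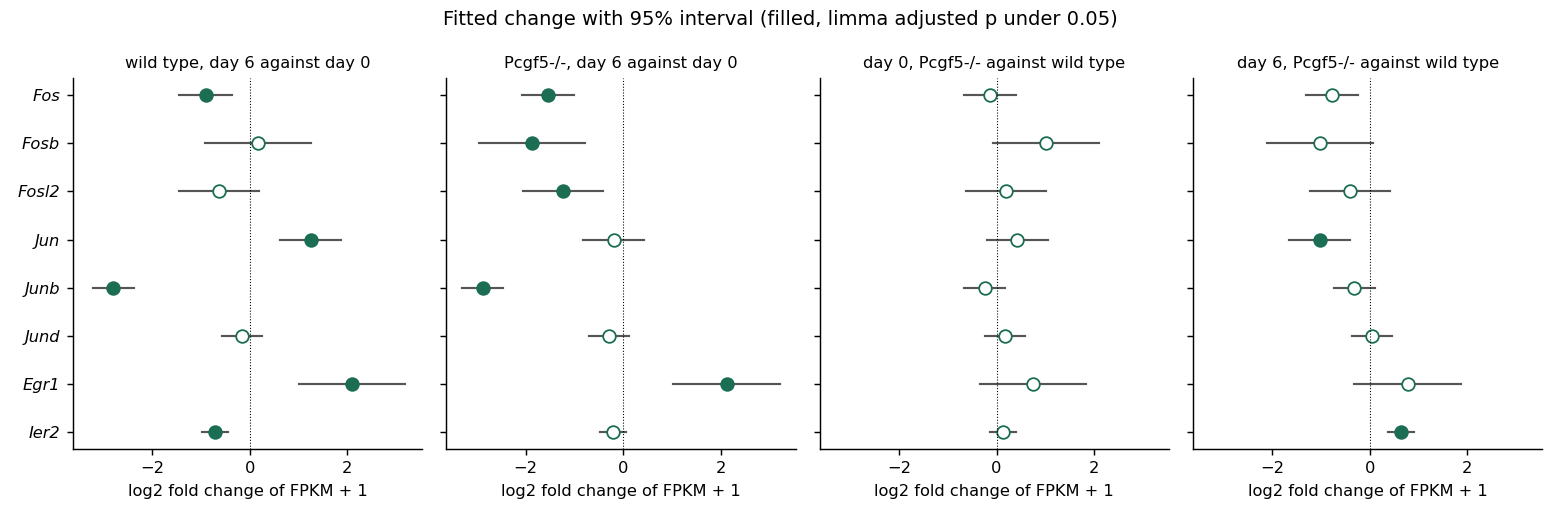
Log2 fold change of FPKM + 1 (horizontal axes) for the 8 members tested, in 4 panels for the change over 6 days in wild type and in Pcgf5-/- and for Pcgf5-/- against wild type at day 0 and at day 6. Points are limma estimates, bars their 95% intervals, and filled points have an adjusted p under 0.05, of which there are 5, 5, 0 and 2. The intervals of Junb (-2.80 and -2.88) and Egr1 (2.09 and 2.12) lie on opposite sides of 0 over the 6 days in both genotypes.

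Between the genotypes at day 0, none of the 8 members tested by limma passed the threshold and none had an unadjusted p under 0.05, where 0.333% of all genes were called, 0.288% higher and 0.0454% lower. With so few calls over all genes, a count of 0 among 8 members says nothing particular to them, and the intervals were wide, -0.35 to 1.84 for *Egr1*, for example. The largest estimate was that of *Fosb* (1.01, SE 0.47, limma adjusted p = 0.316), which rested on replicate 2 of *Pcgf5*-/- and was 0.15 without it. Of the 10 genes, *Fosb* and *Ier2* had groups that did not overlap at day 0, both higher in *Pcgf5*-/-, where this held for 47.9% of all genes tested. At day 6, *Ier2* was called higher and *Jun* lower in *Pcgf5*-/-, 2 of 8, where 16.6% of all genes were called, 9.57% higher and 7.05% lower. The samples of day 6 did not overlap for 8 of the 10 genes, lower in *Pcgf5*-/- for *Fos*, *Fosb*, *Fosl2*, *Jun*, *Junb* and *Egr2* and higher for *Egr1* and *Ier2*, where this held for 62.2% of all genes tested. The median genotype difference of the 8 members was 0.19 at day 0 and -0.36 at day 6, against 0.11 and 0.02 over all genes.

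The change over 6 days was also compared between the genotypes. No member passed the threshold, where 3.09% of all genes did, 1.34% upwards and 1.75% downwards, and 3 of the 8 had an unadjusted p under 0.05, namely *Jun*, *Ier2* and *Fosb* (-2.03, SE 0.67, limma adjusted p = 0.123). For *Fosb* the adjusted p was 0.0418 without replicate 1 of *Pcgf5*-/- at day 0, when the estimate of -2.90 rested on the high replicate 2 alone. *Fos* (-0.64, SE 0.33, adjusted p = 0.285), *Egr1* (0.03, SE 0.67) and *Junb* (-0.08, SE 0.26) had estimates within 2 standard errors of 0.

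The counts of the gene lists that follow stand against 34.2% of all genes that rose and 16.2% that fell in wild type, and 21.9% and 10.4% in *Pcgf5*-/-. Of the 14 other AP-1 partners of the ATF, MAF, BATF and JDP groups, 10 were tested. In wild type 3 rose and 1 fell over the 6 days, the largest rise that of *Maf* (1.69, SE 0.28, limma adjusted p = 0.00158), which passed the FPKM minimum only through wild type at day 6, and the fall that of *Atf4* (-0.72, SE 0.17, adjusted p = 0.00731), a factor of the amino acid response. Of these, 1 rose and 2 fell in *Pcgf5*-/-. *Atf3*, a stress-induced repressor that is itself an immediate early gene, was at 11.5 and 5.19 FPKM in wild type at day 0, 3.70 and 5.01 FPKM in wild type at day 6, 11.8 and 9.80 FPKM in *Pcgf5*-/- at day 0, and 0.743 and 1.54 FPKM in *Pcgf5*-/- at day 6. As for *Fos*, both *Pcgf5*-/- samples of day 6 were the lowest. *Atf3* fell by 2.48 in *Pcgf5*-/- (SE 0.34, limma adjusted p = 0.00164), in 16 of 16 alternative settings, and changed by -0.73 in wild type (SE 0.34, adjusted p = 0.110). The difference between these changes was -1.76 (SE 0.48, adjusted p = 0.0862). At day 6 *Atf3* and *Maf* were lower in *Pcgf5*-/- (-1.34 and -1.37, limma adjusted p = 0.0342 and 0.0167). These calls held in 10 of 16 and 11 of 15 alternative settings. Both were lost without either *Pcgf5*-/- sample or replicate 1 of wild type at day 6. Since *Maf* passed the FPKM minimum only through wild type at day 6, its rise and this difference are in part set by the minimum. Nothing is read from them.

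Other immediate early genes moved in both directions. Of 29 tested, 8 rose and 11 fell in wild type, and 4 rose and 11 fell in *Pcgf5*-/-, with median changes of -0.09 and -0.53. The largest fall in wild type was that of *Sgk1*, a serum and glucocorticoid regulated kinase, from 129 and 159 FPKM to 19.4 and 4.63 FPKM (-3.75, SE 0.53, limma adjusted p = 0.000676). The largest fall in *Pcgf5*-/- was that of *Ptgs2*, the inducible cyclooxygenase, from 12.8 and 10.8 FPKM to 0.168 and 0.273 FPKM (-3.38, SE 0.58, adjusted p = 0.00404). *Ptgs2* also fell in wild type (-2.56, SE 0.58, adjusted p = 0.00694), from 18.2 and 3.05 FPKM to 0.498 and 0.484 FPKM. The largest rises were those of *Gadd45g*, a growth arrest gene, in wild type (1.96, SE 0.20, adjusted p = 0.000131) and of *Plk3*, a kinase of the stress response, in *Pcgf5*-/- (1.24, SE 0.30, adjusted p = 0.0166, held in 13 of 16 alternative settings). At day 6 *Sgk1* had the largest positive difference in *Pcgf5*-/- (2.12, SE 0.53, adjusted p = 0.0313, held in 9 of 16 alternative settings) and *Cyr61*, a matrix protein gene of the serum response, the largest negative difference (-1.16, SE 0.30, adjusted p = 0.0350, held in 10 of 16). Over the alternatives these p reached 0.171 and 0.185.

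The genes that ERK activity induces as its own brakes, and its ETS factors, were a further list of 12. In wild type 5 rose and 2 fell, and in *Pcgf5*-/- 7 rose and none fell, and over the alternative settings 2 to 9 rose in *Pcgf5*-/-. *Dusp4* and *Dusp6* encode phosphatases that switch ERK off. *Dusp4* went from 2.59 and 1.99 FPKM to 41.0 and 17.4 FPKM in wild type (3.09, SE 0.43, limma adjusted p = 0.000639). *Dusp6* went from 6.13 and 5.86 FPKM to 38.4 and 25.0 FPKM in *Pcgf5*-/- (2.19, SE 0.23, adjusted p = 0.000537). It rose in wild type too (1.50, SE 0.23, adjusted p = 0.00111), and the samples of day 6 lay above those of day 0 for both phosphatases in both genotypes, in the direction of *Egr1* and opposite to *Fos*. *Etv5*, an ETS factor, fell from 95.7 and 110 FPKM to 31.6 and 13.4 FPKM in wild type (-2.25, SE 0.34, adjusted p = 0.00102), where *Pcgf5*-/- went from 100 and 101 FPKM to 81.5 and 53.7 FPKM (-0.60, SE 0.34, adjusted p = 0.217). The difference of these changes was 1.66 (SE 0.49, adjusted p = 0.0988). *Etv4* was at 23.5 and 19.2 FPKM in *Pcgf5*-/- and 8.33 and 1.91 FPKM in wild type at day 6 (adjusted p = 0.0206, up to 0.114 over the alternatives, held in 12 of 16).

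**Figure D5:**
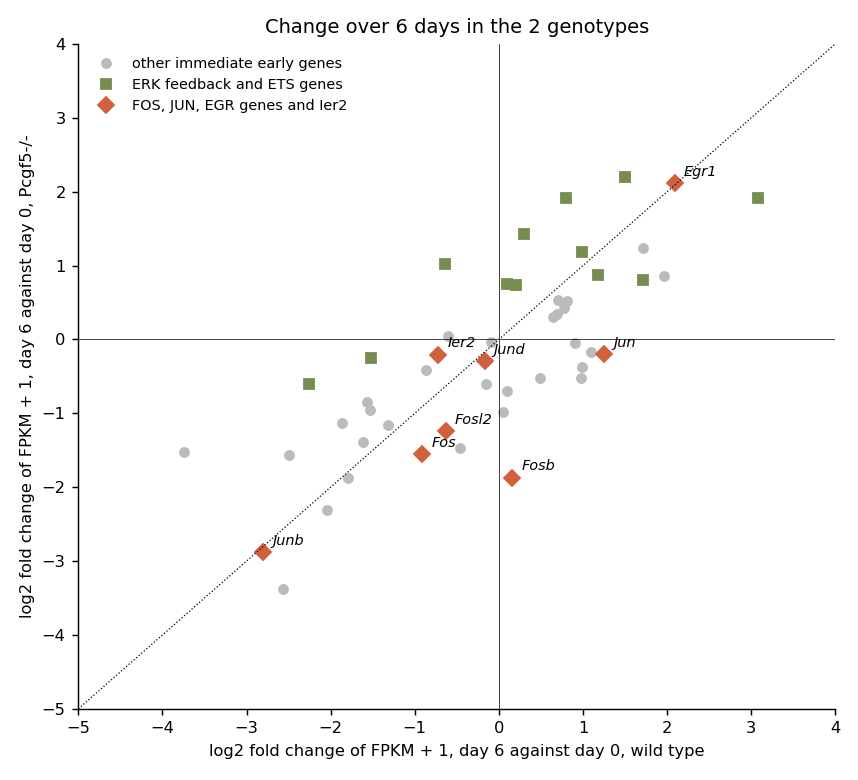
Log2 fold change of FPKM + 1 over 6 days in wild type (horizontal axis) and in Pcgf5-/- (vertical axis) for the 8 members tested (orange diamonds, named), 29 other immediate early genes (grey circles) and 12 ERK feedback and ETS genes (green squares), with the dotted line at equal change. Junb lies low and Egr1 high in both genotypes near the line, and Jun (1.25 and -0.20) and Fosb (0.16 and -1.87) lie below it.

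Of SRF and its partners, 2 of 6 rose in wild type and 1 of 6 in *Pcgf5*-/-, shares near those of all genes that rose (34.2% and 21.9%), and the rises were of the myocardin-related coactivators *Mkl1* (0.99, SE 0.29, limma adjusted p = 0.0219, in wild type) and *Mkl2* (1.18, SE 0.25, adjusted p = 0.00493, in wild type and 0.94, SE 0.25, adjusted p = 0.0226, in *Pcgf5*-/-). The *Mkl1* call and the *Pcgf5*-/- call of *Mkl2* held in 12 of 16 alternative settings each and were lost with quantile normalization, without an FPKM minimum and without replicate 1 or 2 of some groups, where p rose to 0.129 and 0.128. *Srf* itself was at 18.5 and 22.7 FPKM in wild type at day 0 and 14.4 and 17.6 FPKM at day 6, and at 20.3 and 28.5 FPKM and 17.4 and 17.9 FPKM in *Pcgf5*-/-, changes of -0.34 and -0.42 that did not pass (adjusted p = 0.173 and 0.127). The ternary complex factors *Elk1*, *Elk3* and *Elk4* had changes of -0.69 to -0.02, none past the threshold. Of the other EGR genes, *Egr3* was under the minimum, and *Egr4* was at 0.872 and 1.66 FPKM in *Pcgf5*-/- at day 0 against 0.0303 to 0.244 FPKM in every other sample. *Egr4* passed the FPKM minimum only through that group, so a fall from it is in part set by the minimum (-1.04, SE 0.21, limma adjusted p = 0.00731), and nothing is read from it. The EGR corepressor gene *Nab1* rose by 0.51 in wild type (SE 0.18, adjusted p = 0.0495), a call kept in 1 of 15 alternative settings, and *Nab2* had changes of 0.30 and 0.53 (adjusted p = 0.206 and 0.0612).

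Among 22 RAS, RAF, MEK, ERK, JNK and p38 kinase genes, 12 rose and 2 fell in wild type and 6 rose and 1 fell in *Pcgf5*-/-. *Mapk12*, a p38 kinase gene, had the largest rise in both, from 0.586 and 0.727 FPKM to 19.0 and 31.3 FPKM in wild type (3.94, SE 0.30, limma adjusted p = 3.69e-05) and from 0.944 and 1.43 FPKM to 13.5 and 22.7 FPKM in *Pcgf5*-/- (3.09, SE 0.30, adjusted p = 0.000370). *Map2k1*, which encodes the MEK1 target of PD0325901, fell by 0.96 in wild type (SE 0.15, adjusted p = 0.00101) and was the gene that fell in *Pcgf5*-/- (-0.72, SE 0.15, adjusted p = 0.00765, and 0.0569 without replicate 1 of *Pcgf5*-/- at day 0). The larger fall in wild type was that of the ribosomal S6 kinase gene *Rps6ka1* (-1.19, SE 0.17, adjusted p = 0.000738).

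Genes often given as AP-1 targets went down more than up over the 6 days. Of 9 tested, 1 rose and 5 fell in wild type and 1 rose and 7 fell in *Pcgf5*-/-, with 4 to 6 and 4 to 7 falling over the alternative settings. The largest fall in wild type was that of *Spp1*, the osteopontin gene, from 377 and 363 FPKM to 10.8 and 8.47 FPKM (-5.13, SE 0.15, limma adjusted p = 4.22e-06). In *Pcgf5*-/- it was that of *Cd44*, a hyaluronan receptor gene, from 14.3 and 40.0 FPKM to 1.29 and 1.66 FPKM (-3.34, SE 0.45, adjusted p = 0.00149). *Cd44* was highest in the *Pcgf5*-/- sample of day 0 with the highest fibroblast marker sum, whereas *Spp1* was lower in that sample than in the other *Pcgf5*-/- sample of day 0. Fibroblasts express these genes, and the part of feeder transcripts in the falls was not tested. Between the genotypes at day 6, 3 of the 9 were called higher in *Pcgf5*-/- and 0 lower, where 9.57% and 7.05% of all genes were. The largest of these differences was that of *Spp1* (1.75, SE 0.15, limma adjusted p = 0.00328). The riser in both genotypes was *Ccnd1*, the cyclin D1 gene (0.48 and 0.45, SE 0.13, adjusted p = 0.0161 and 0.0348), with the wild type call lost without replicate 1 of either day and the *Pcgf5*-/- call lost without any of its 4 samples, without a trend and with its groups fitted alone, up to adjusted p of 0.0913 and 0.181.

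Heat shock genes, which report stress of handling and also respond within minutes, were counted beside the members. Of 11 tested, none rose and 4 fell in wild type and none rose and 3 fell in *Pcgf5*-/-, and their summed FPKM was 4270 and 4335 in wild type at day 0, 3093 and 2838 in wild type at day 6, 3923 and 3980 in *Pcgf5*-/- at day 0, and 3583 and 3869 in *Pcgf5*-/- at day 6. The sum was lowest in the wild type samples of day 6, as *Ier2* was, and its part in that result was not tested. The largest fall in wild type was that of *Hspb1*, a small heat shock protein gene (-3.04, SE 0.14, limma adjusted p = 6.09e-06), and in *Pcgf5*-/- that of *Hspa1b* (-1.10, SE 0.36, adjusted p = 0.0489, kept in 5 of 16 alternative settings), whose reads are hard to tell from those of its near copy *Hspa1a*. No gene of any of these lists passed the threshold between the genotypes at day 0.

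The 5 genes whose log2(FPKM + 1) followed that of *Fos* most closely over the 8 samples were *Mb21d2* (Pearson r = 0.98), *Sun2* (0.98), *Nptn* (0.97), *Rraga* (0.97) and *Aven* (0.97). For *Egr1* they were *Lpgat1* (0.98), *Srpk2* (0.98), *Adgrl1* (0.98), *H2-Q7* (0.97) and *Slc2a1* (0.97). These values describe 8 libraries in 4 groups and carry no test.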

How the data were processed

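Poly(A) RNA of 8 samples was sequenced, 2 in each of 4 groups taken from the sample titles. Per the study's methods, the authors trimmed the reads, removed identical read pairs, which can lower the most abundant transcripts, and aligned them to mm9, and they deposited FPKM values, scaled to library size and gene length. The submitters' processing notes name TopHat2 2.0.4 and Cufflinks 2.1.1, and the annotation is not given in the sources used here. The FPKM carry no counts, so no count test was run, and the depth behind a value is known only in relative terms.

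FPKM were analysed as log2(FPKM + 1) with limma 3.58.1 in R 4.3.3, in 1 fit of all 8 samples with a mean per group and a variance trend, restricted to 13214 genes whose group mean exceeded 1 FPKM somewhere. P-values were adjusted by Benjamini-Hochberg over these genes, with a threshold of 0.05, and 95% intervals are unadjusted. They rest on a spread between samples that is pooled over all groups and drawn towards that of genes of similar level. How far this spread covers differences between clones is not known. The fit was also run on simulated data with independent noise whose spread was set by expression level alone. That setting lacks the differences in spread between genes of similar level, and nothing is read from it. Tables and plots used Python 3.11.15, pandas 2.3.3, numpy 2.4.6 and matplotlib 3.10.9. Promoters came from RefSeq (GRCm38.p6).

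The members and lists were chosen with earlier results of these data known. Named genes were the 10 members, *Pcgf5*, the largest rise and fall past the threshold in each list and comparison, the EGR, NAB, SRF and ternary complex factor genes and *Atf3*, and the 5 genes most correlated with *Fos* and with *Egr1*. Alternatives were other pseudocounts, other FPKM minimums, quantile normalization, a replicate block, no trend, a fit of the compared groups alone and leaving out each sample. The same numbers in different groups were not taken to pair samples, as the titles give no pairing. The deviations of same-numbered samples correlated at 0.39 between the genotypes at day 6 and at -0.08 to 0.10 between the other pairs of groups. Whether the samples of day 6 share a batch is not given in the sources used here.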

Additional observations from a re-analysis of the deposited data

Results flagged for a closer look

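None of the 8 members tested differed between the genotypes in its change over 6 days by the limma test of that difference. Of the 102 tested genes on the lists of partners, regulators, targets, other immediate early genes and heat shock genes, 5 did (4.9%), where 3.09% of all genes did. Beside these, 5 of 10 naive pluripotency markers passed, all higher in *Pcgf5*-/-. Of the 10 neural progenitor markers 4 passed, and of the 10 neuron markers 2, all lower in *Pcgf5*-/-. The value given below is the change in *Pcgf5*-/- minus that in wild type on the log2(FPKM + 1) scale. *Hspb1*, the small heat shock protein gene, had a difference of 2.03 (SE 0.20, limma adjusted p = 0.0141), with a fall in both genotypes that was smaller in *Pcgf5*-/-. *Spp1* had a difference of 1.99 (SE 0.22, adjusted p = 0.0185), also with a smaller fall in *Pcgf5*-/-, from 353 and 280 FPKM to 33.9 and 35.5 FPKM. *Timp1*, an inhibitor of matrix metalloproteinases that was named after its values were seen, had a difference of 1.13 (SE 0.22, adjusted p = 0.0384). *Mapk11*, a p38 kinase gene, had a difference of -1.50 (SE 0.30, adjusted p = 0.0435), with a rise in both genotypes that was smaller in *Pcgf5*-/-. *Cited2*, an immediate early coactivator gene, had a difference of -1.37 (SE 0.24, adjusted p = 0.0326), from 31.7 and 23.4 FPKM to 51.5 and 59.1 FPKM in wild type and from 44.2 and 48.1 FPKM to 32.7 and 38.2 FPKM in *Pcgf5*-/-. Over 15 alternative settings the call held in 11 for *Hspb1*, 11 for *Spp1*, 6 for *Timp1*, 2 for *Mapk11* and 8 for *Cited2*, and the sign in all. The 4 settings that ended the calls of *Hspb1* and *Spp1* left out replicate 2 of *Pcgf5*-/- at day 0, replicate 1 or 2 of *Pcgf5*-/- at day 6 or replicate 2 of wild type at day 0, with adjusted p up to 0.103 and 0.104.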

How the results depend on the processing

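With 2 samples a group, leaving 1 out leaves a lone sample that is assumed to vary like the others. For the 12 changes called among the members, 172 of 191 alternative fits kept the call, 19 lost it and 0 reversed. Of the counts of members called, that of the days in *Pcgf5*-/- was 5 and became 3 without an FPKM minimum, and that of the genotypes at day 6 was 2 and became 1. Leaving out samples gave 4 to 6 members for the days in wild type, 2 to 5 for those in *Pcgf5*-/-, 0 to 0 for the genotypes at day 0, 0 to 3 at day 6 and 0 to 1 for the difference of the changes.

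Over all genes, the 44 called at day 0 became 6 without a minimum, 102 with a mean FPKM over 5, 3 with quantile normalization, 2 without a trend, 0 with the groups of day 0 fitted alone and 1 to 22 without a sample. The 408 genes of the difference became 251 and 191 with pseudocounts of 0.1 and 0.01, 86 without a minimum and 4 to 347 without a sample. Without a sample, 6668 became 4702 to 6535 (wild type days), 4271 became 2367 to 4147 (*Pcgf5*-/- days) and 2197 became 297 to 1977 (day 6). Quantile normalization turned 38 rises and 6 falls at day 0 into 0 and 3, and 177 and 231 for the difference into 307 and 225.

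With the replicate number as a block, 1 gene was called at day 0 in place of 44, and the members called stayed at 5, 5, 0, 2 and 0. By their titles, same-numbered samples share only a number, but their deviations from the group mean correlated at 0.39 between the genotypes at day 6. The cause of that was not tested.

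Among values that missed the threshold, these reversed. With quantile normalization *Fosb* was -0.31 in wild type over the days, *Jund* -0.014 between genotypes at day 6 and *Junb* 0.058 for the difference, for which *Egr1* was -0.24 and -0.29 with pseudocounts of 0.1 and 0.01. Without a sample, the changes over the days ranged from -0.044 to 0.37 for *Fosb* and from -0.34 to 0.0020 for *Jund* in wild type and from -0.45 to 0.060 for *Jun* in *Pcgf5*-/-. Differences of the genotypes ranged at day 0 from -0.32 to 0.030 for *Fos*, -0.34 to 0.74 for *Fosl2* and -0.053 to 1.54 for *Egr1*, and at day 6 from -0.12 to 0.20 for *Jund*. Those of the change ranged from -0.26 to 0.11 for *Junb*, -0.30 to 0.039 for *Jund* and -0.77 to 0.82 for *Egr1*. The cause was not tested.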
